A study of Mus musculus with 4 samples.

Results

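The Hox genes of mouse embryonic stem (ES) cells were followed in RNA sequencing of the ES cell line TBV2. Entries were taken from the authors' deposited table wherever a symbol began with Hoxa, Hoxb, Hoxc or Hoxd followed by a digit. This gave 39 entries of 27532 that were measured. They carried 41 symbols, of which 39 were protein-coding Hox genes and 2 were antisense transcripts, Hoxa11os and Hoxd3os1. The control (NT) was 1 library of TBV2 cells labelled as control. The knockdown (KD) was 3 clones lowered in T-UCstem1, a long noncoding RNA that carries an ultraconserved element. LIF and serum were the medium of both, with feeder cells and dense culture named in the series design. The agent of the knockdown and its level in these libraries were not analysed here. Each condition has 1 FPKM per entry (fragments scaled to transcript length and to the number of mapped fragments), with the 3 clones pooled by the authors, so no value has an SD and the clones cannot be compared.

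Hox genes encode homeodomain transcription factors that give body regions their identity along the head-to-tail axis. They lie in 4 clusters, and the order of genes along a cluster matches the order in which they are switched on in time and space; paralogue groups with low numbers act toward the head and those with high numbers toward the tail. In ES cells the clusters are a textbook target of Polycomb repression, with transcription kept low until differentiation. Retinoic acid, Wnt and Fgf signals and the caudal factors open them in order, and TALE homeodomain proteins (Meis, Pbx and Pknox) bind DNA together with Hox proteins.

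On mm9, as the deposited table gives coordinates, the Hoxa entries from Hoxa3 to Hoxa13 span chromosome 6 from 52119060 to 52210874, the Hoxb entries chromosome 11 from 96055674 to 96229567, the Hoxc entries chromosome 15 from 102751327 to 102867283 and the Hoxd entries chromosome 2 from 74506366 to 74603199. Hoxc11, Hoxc12 and Hoxc13 were merged into 1 entry. A separate entry named Hoxc13 shares its locus, so the values of these Hoxc genes are uncertain. In all, 11 entries share a locus with another Hox entry, among them Hoxa11 and its antisense transcript Hoxa11os, whose reads cannot be told apart without a stated use of strand.

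Promoter sequences are shown for Hoxa10 and Hoxd13, which were among the Hox entries with a deposited p-value under 0.05. Hoxb3 was also under 0.05, but no promoter sequence was available for it. The sequences are from RefSeq, build GRCm38.p6, a later build than that of the deposited table. Each run is the 250 bases before a transcription start, 5′ to 3′ on the gene's strand, with CG dinucleotides in capitals. Hoxa10 has a pair of starts, at chr6:52234940-52235189 and chr6:52240855-52241104, both on the minus strand. Hoxd13 lies at chr2:74667975-74668224 on the plus strand.
Hoxa10 (nearer the Hoxa9 side): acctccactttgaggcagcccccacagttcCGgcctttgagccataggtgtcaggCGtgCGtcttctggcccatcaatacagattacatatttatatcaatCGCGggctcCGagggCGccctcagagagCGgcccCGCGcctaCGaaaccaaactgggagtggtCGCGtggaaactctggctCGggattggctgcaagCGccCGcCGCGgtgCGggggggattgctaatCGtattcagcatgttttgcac
Hoxa10 (nearer the Hoxa11 side): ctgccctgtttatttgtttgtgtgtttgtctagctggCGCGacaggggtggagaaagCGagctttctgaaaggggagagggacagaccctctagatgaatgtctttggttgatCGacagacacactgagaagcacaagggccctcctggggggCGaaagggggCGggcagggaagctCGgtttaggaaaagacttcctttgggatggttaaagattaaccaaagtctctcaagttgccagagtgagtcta
Hoxd13: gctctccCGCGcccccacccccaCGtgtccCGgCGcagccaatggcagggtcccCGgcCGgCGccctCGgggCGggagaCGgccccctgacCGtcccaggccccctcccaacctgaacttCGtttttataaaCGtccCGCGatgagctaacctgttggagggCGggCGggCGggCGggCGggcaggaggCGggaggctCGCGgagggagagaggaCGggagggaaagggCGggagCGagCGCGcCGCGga
The Hoxd13 run held 31 CG dinucleotides and a GC content of 74.4%, and the Hoxa10 runs held 20 and 7. Over the 26 Hox promoters in the table, which belong to 24 genes, the median was 12.5 CG dinucleotides, ranging from 2 to 35, against 6 over the 32825 other promoters. Most of the 26 belong to Hoxa and Hoxd, with only Hoxb1, Hoxb4 and Hoxb8 from Hoxb and only Hoxc4 from Hoxc. The antisense transcripts Hoxa11os and Hoxd3os1 are among them. The shares therefore say little about Hoxb and Hoxc. A CCAAT motif on either strand stood in 14 of the 26 Hox promoters (53.8%) and in 33.8% of the others. The TATA core TATAAA stood in 5 (19.2%, against 12.4%), the caudal core TTTATG in 5 (19.2%, against 10.8%), the retinoic acid receptor core AGGTCA in 6 (23.1%, against 14.0%) and the Pbx-Hox site TGATTNAT in 2 (7.69%, against 2.82%). Read on the other strand TATAAA is TTTATA, which shares its first letters with TTTATG, and CCAAT is ATTGG, which shares letters with TGATTNAT. A match describes the sequence only.

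Hox transcripts were low in both conditions and were mostly higher in the KD. Of the 39 entries, 34 had a higher FPKM in the KD, 4 had a lower one, and Hoxd3os1 was listed at 0 in both. The median was 0.270 FPKM in the KD, against 0.0765 FPKM in NT, and the summed FPKM was 32.1 in the KD against 14.9 in NT, a ratio of 2.16. Only 7 entries reached 1 FPKM in the KD and 5 in NT, and none exceeded 6.66 FPKM. In bulk libraries a few cells with much Hox RNA and many cells with little cannot be told apart. None of the 15 tested entries was marked by the authors, where 1.15% of all tested entries were (0.963% as higher in the KD). None of the 15 had q under 0.1 either, where 1.71% of all tested entries did. All 15 had the higher value in the KD, where 50.8% of the other tested entries did. Some had few fragments in NT: Hoxa11 was tested with about 87.0 fragments in the KD and 3.36 in NT. Hoxb7 and Hoxb8, both lower in the KD, were not tested, so the direction of the tested set is partly a matter of which entries were tested. At a deposited p-value under 0.05, with no adjustment, 4 of the 15 passed, all higher in the KD, where 6.10% of all tested entries passed in that direction. The authors left 24 entries untested, among them all but 1 of the Hoxd entries. With 1 control library, the deposited p-values hold no measured spread between control cultures.

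**Figure D1:**
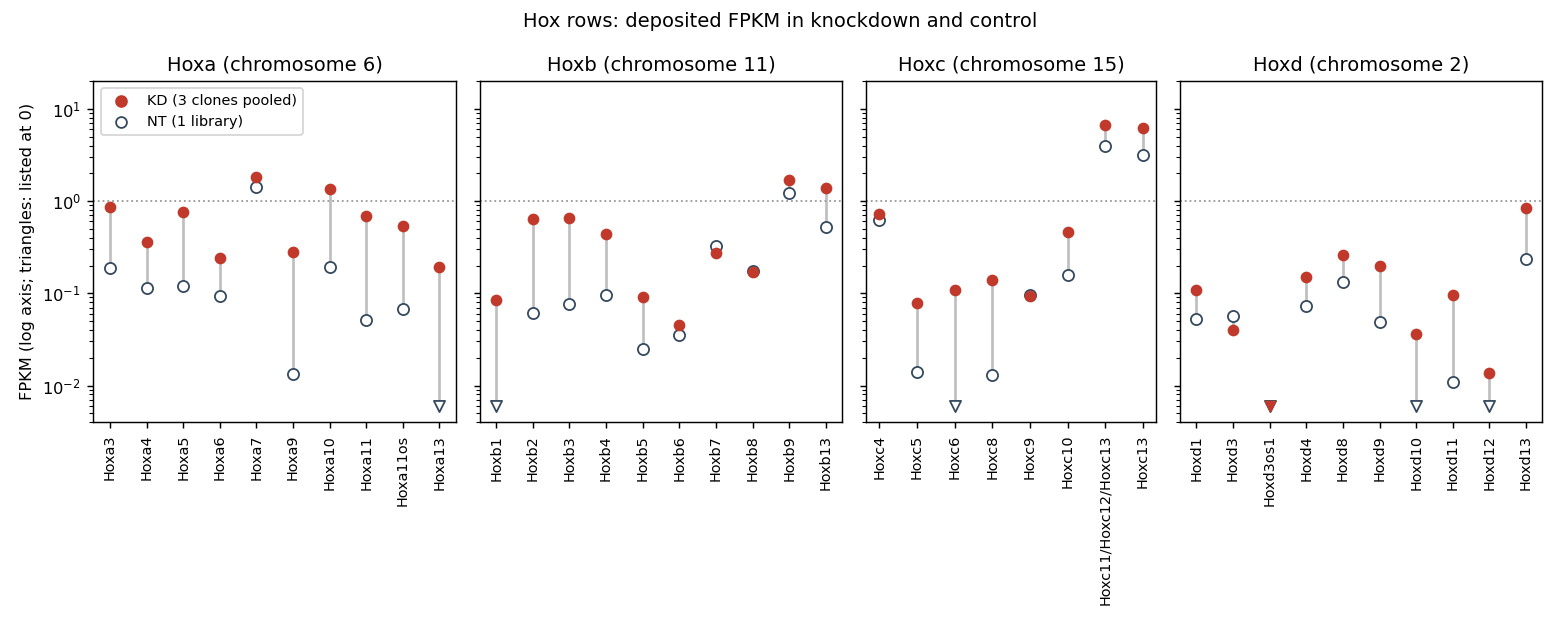
Deposited FPKM of 38 of the Hox entries (log axis) in the KD (filled, 3 clones pooled) and NT (open, 1 library), by cluster and in order of paralogue group; triangles mark entries listed at 0 and the dotted line is 1 FPKM. In 33 entries the filled point lies above the open one, and the highest pair is the Hoxc11, Hoxc12 and Hoxc13 entry at 6.66 and 3.95 FPKM.

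The table as a whole bears on such low values. Entries outside the Hox genes were also more often higher than lower in the KD: among all entries not at 0 in both conditions, 55.3% were higher in the KD, and 57.1% among entries within the range of mean FPKM that the Hox entries cover. Zeros were fewer in the KD throughout, at 18.9% of the other entries against 24.7% in NT. From the spacing of low values, 1 fragment on a 2 kb transcript was worth less in the pooled KD than in NT: 3 fragments would be about 0.0269 FPKM in the KD, against 0.0520 FPKM in NT. By the same measure, 15 of 37 Hox entries with 1 symbol stood at 3 fragments or fewer in NT, including 6 at 0, and 2 in the KD. These figures are approximate and cover counting error only.

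Within bands of mean FPKM the Hox entries stood as follows. Of 20 Hox entries with a mean of 0.1 to 1 FPKM, 18 were higher in the KD, where 51.5% of 6250 other entries in that band were, and the summed FPKM ratio was 3.35 against 1.05. All 5 Hox entries with a mean of 1 to 10 FPKM were higher in the KD, where 50.7% of the other entries were. Under 0.1 FPKM, 11 of 13 were higher, and so were 77.9% of other entries at that level, so the count in that band is close to its background. On the scale log2((KD FPKM + 1)/(NT FPKM + 1)), which understates the change of low genes, the Hox median was 0.19 (quartiles 0.088 and 0.60) and the median of the other entries 0.00, or 0.028 for those in the Hox range of mean FPKM. A log2 fold of at least 0.5 was found in 12 of the 39 entries, 30.8% of them, against 5.83% of all entries, or 8.38% in the Hox range of mean FPKM. No Hox entry was at -0.5 or lower, where 4.20% of all entries were.

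**Figure D2:**
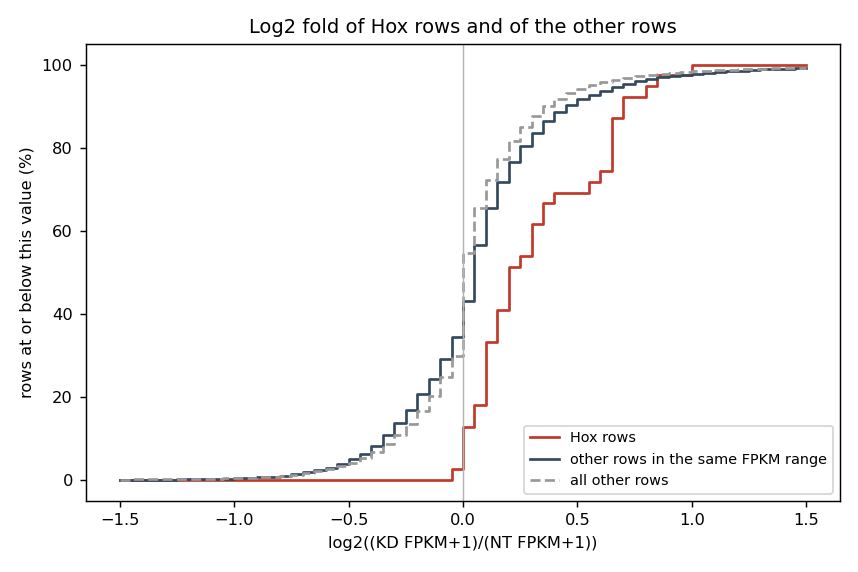
Cumulative share of entries (vertical axis, percent) at or below each log2 fold of KD over NT with a pseudocount of 1 (horizontal axis), for the Hox entries, other entries in the same range of mean FPKM, and all other entries. At a log2 fold of 0 the curves stand at 12.8% for Hox entries, 43.0% for entries in the same range and 54.8% for all others.

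The Hoxa cluster had the highest median log2 fold of the 4. All 11 entries were higher in the KD, with a median of 0.52 and a range from 0.18 to 0.98, and the summed FPKM was 10.4 against 3.72. Hoxa13 was the 1 entry listed at 0 in NT (9.09% of the cluster), and none was listed at 0 in the KD.

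Toward the anterior end, Hoxa3, a regulator of thymus and parathyroid development, was at 0.857 FPKM in the KD, against 0.189 FPKM in NT, and Hoxa5, which acts in lung and axial skeleton, at 0.754 against 0.121 FPKM. Hoxa4 (0.357 against 0.114 FPKM) and Hoxa6 (0.239 against 0.0928 FPKM) were lower in level and not tested. Hoxa7 was more abundant than these, at 1.84 FPKM against 1.41 FPKM, and the closest to equal in ratio, with a log2 fold of 0.23 and q = 0.999 by the authors' deposited table.

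At the posterior end, Hoxa10, which patterns the lumbar spine and the uterus, had the largest log2 fold of any Hox entry. It was at 1.34 FPKM in the KD, against 0.191 FPKM in NT, a ratio of 7.05 and a log2 fold of 0.98. By the authors' deposited table p = 0.0094 and q = 0.243, so it was not called. The NT value corresponds to about 14.1 fragments. Hoxa11, needed for forearm and kidney development, was at 0.681 against 0.0510 FPKM, and its antisense transcript Hoxa11os at 0.532 against 0.0683 FPKM; both were near 3 to 4 fragments in NT, so their ratios are imprecise. Hoxa9, a gene of blood progenitors, was at 0.279 against 0.0134 FPKM, the latter about 1.24 fragments. Hoxa13, which acts in digits and the hindgut, was at 0.191 FPKM in the KD.

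The cluster lies on chromosome 6, and entries of that chromosome were higher in the KD in general. Its 600 other entries with at least 1 FPKM in either condition had a median log2 fold of 0.26, the highest of the 20 chromosomes with at least 100 such entries, and 78.5% of them lay above 0. Chromosomes 11, 15 and 2, which hold the other clusters, had medians of 0.033, 0.011 and 0.059. Less its own chromosome's median, the Hoxa median was 0.26, with 8 of 11 entries above and 3 below. Over all clusters centring left 28 of 39 entries above their chromosome's median and 11 below, 71.8% against 87.2% above 0 without it. The medians subtracted rest on entries with at least 1 FPKM, while most Hox entries are lower. The pseudocount shrinks the folds of such low entries more, so the centring sets unlike levels side by side. Among other entries of chromosome 6 in the Hox range of mean FPKM the median was 0.072, with 71.2% higher in the KD. The part of the chromosome-wide shift in the Hoxa values was not tested. Without Hoxa, the ratio of summed FPKM was 1.94 for the other 3 clusters.

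The Hoxb entries differed along the cluster. Of 10 entries 8 were higher in the KD and 2 lower, with a median log2 fold of 0.19 and a summed FPKM of 5.46 against 2.52. At the 3′, anterior end, Hoxb2 was at 0.631 against 0.0617 FPKM, Hoxb3 at 0.651 against 0.0765 FPKM and Hoxb4 at 0.439 against 0.0948 FPKM. Hoxb2 and Hoxb3 act in hindbrain segments, and Hoxb4 in the neck region and in blood stem cells. Hoxb3 had the lowest p of any Hox entry, 0.00865, and q = 0.236 by the authors' deposited table; its p was singled out after its value was seen. Hoxb2, at a log2 fold of 0.62, had a p of 0.167 and a q of 0.889 there, so a fold as large carried a much larger p. Hoxb1, the hindbrain gene that responds early to retinoic acid, was the 1 Hoxb entry of 10 listed at 0 in NT, at 0.0843 FPKM in the KD.

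In the middle of the Hoxb cluster all values were at or below 0.322 FPKM. Hoxb5 was at 0.0919 against 0.0251 FPKM, a ratio of 3.67, and Hoxb6 at 0.0448 against 0.0354 FPKM, each with about 2.0 fragments in NT. Hoxb7 was at 0.270 against 0.322 FPKM and Hoxb8 at 0.170 against 0.175 FPKM, the 2 entries with the lower value in the KD. Further toward the 5′ end, Hoxb9, a thoracic patterning gene, was the most abundant of the cluster at 1.67 against 1.22 FPKM, with a log2 fold of 0.27 and q = 0.999 by the authors' deposited table. Hoxb13, a gene of the tail bud and prostate, was at 1.40 against 0.518 FPKM, with a log2 fold of 0.66, a p of 0.093 and a q of 0.724 there.

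The Hoxc cluster held the most abundant entries. The entry of Hoxc11, Hoxc12 and Hoxc13 was at 6.66 FPKM in the KD, against 3.95 FPKM in NT, a log2 fold of 0.63, with p = 0.108 and q = 0.766 by the authors' deposited table. The second entry of that locus, named Hoxc13 for a gene of hair and nail, was at 6.21 against 3.17 FPKM, a log2 fold of 0.79 and a q of 0.999 there. Together they made up most of the cluster's summed FPKM, 14.5 against 8.03. Without them the ratio of summed FPKM over the cluster was 1.77, against 1.80 with them.

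The rest of the cluster was below 1 FPKM. Hoxc10, a lumbar gene, was at 0.466 against 0.159 FPKM and Hoxc4, at the anterior end, at 0.732 against 0.630 FPKM with q = 0.999 by the authors' deposited table. Hoxc8, which acts in the thoracic skeleton, was at 0.139 against 0.0129 FPKM, and Hoxc5 at 0.0789 against 0.0141 FPKM; these NT values are about 1 fragment each. Hoxc6 was listed at 0 in NT and at 0.108 FPKM in the KD. Hoxc9 was level, at 0.0932 against 0.0951 FPKM. Over the 8 entries 7 were higher in the KD, 1 was listed at 0 in NT (12.5%) and none in the KD, and the median log2 fold was 0.16.

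The Hoxd cluster was the lowest, with no entry at 1 FPKM. Its summed FPKM was 1.75 in the KD and 0.609 in NT, and 3 of 10 entries were listed at 0 in NT against 1 in the KD. The median log2 fold was 0.088, with 8 entries higher in the KD, 1 lower and 1 at 0 in both. Hoxd13, the limb and digit gene at the 5′ end, stood out in level at 0.850 against 0.235 FPKM. Its ratio was 3.61 and its log2 fold 0.58, with p = 0.0332 and q = 0.463 by the authors' deposited table, the 1 Hoxd entry tested.

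The other Hoxd entries were at or below 0.261 FPKM in both conditions. Hoxd8 was at 0.261 against 0.131 FPKM (log2 fold 0.16) and Hoxd9, which acts in the upper limb, at 0.198 against 0.0486 FPKM (log2 fold 0.19). Hoxd4 was at 0.149 against 0.0729 FPKM, Hoxd1 at 0.110 against 0.0530 FPKM and Hoxd11 at 0.0959 against 0.0108 FPKM. Hoxd10 and Hoxd12 were listed at 0 in NT and at 0.0359 and 0.0136 FPKM in the KD. Hoxd3 was the entry with the lower value in the KD, at 0.0400 against 0.0571 FPKM, which is about 4.89 fragments in NT.

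Across the 4 clusters, the coding entries of paralogue groups 1 to 3 had a median log2 fold of 0.62 (6 of 7 higher in the KD), those of groups 4 to 8 of 0.15 (13 of 15) and those of groups 9 to 13 of 0.34 (14 of 15). A log2 fold of at least 0.5 was found in 4 of 7, 1 of 15 and 6 of 15 of them. Their levels also differed, with median KD values of 0.631, 0.239 and 0.466 FPKM in the same order. The pseudocount shrinks low entries more, so these medians set unlike levels side by side. The ratios of summed FPKM, KD over NT, were 2.99, 1.74 and 2.09. Merged entries were placed by their lowest-numbered symbol. Group 13, the most posterior, was higher in the KD in the entries of all 4 clusters, from Hoxa13 at 0.191 FPKM against a listed 0 to the entry named Hoxc13. That entry was counted as coding, but its strand is not stated. Its locus number falls beside that of Hotair and apart from those of the other Hoxc entries. It may therefore not be the coding transcript, and the merged entry that also holds Hoxc13 was placed in group 11. Group 10 (Hoxa10, Hoxc10 and Hoxd10) was higher in all 3 entries, with a summed FPKM of 1.85 against 0.350. Group 9 was mixed in size: Hoxb9 supplied most of its summed 2.24 against 1.37 FPKM. Group 7 (Hoxa7 and Hoxb7) summed to 2.11 against 1.74 FPKM and group 8 to 0.571 against 0.319 FPKM.

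Other transcripts inside the clusters were compared with those just outside. Of 14 other entries inside the spans, 9 were higher in the KD, none was lower and 5 were at 0 in both, with a median log2 fold of 0.035. They include Hotair, the antisense RNA of the Hoxc cluster, at 0.132 against 0.0592 FPKM, and a pair of entries with no symbol between Hoxc9 and Hoxc8 at 0.909 against 0.110 and 0.632 against 0.0432 FPKM, singled out after their values were seen. The entry of Gm53 with Mir196a-1, between Hoxb13 and Hoxb9, was the most abundant inside any cluster and level, at 8.29 against 8.23 FPKM. Hottip, the RNA beyond Hoxa13, was at 0.00858 FPKM in the KD and listed at 0 in NT.

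Outside the spans, up to 200 kb away, 27 entries had a median log2 fold of 0.034, from -0.36 to 0.38, with 19 higher in the KD and 6 lower. None of them was marked. This median cannot be set against the one inside, where the median KD value was 0.0695 FPKM against 2.28 FPKM outside and the pseudocount shrinks low entries more. Among tested entries alone the median was 0.51 for the 4 inside, which include the pair with no symbol, and 0.080 for the 17 outside. The nearest outside entries with at least 1 FPKM were often far more abundant than any Hox gene. Gm15055, on the anterior side of Hoxa, was at 48.7 against 38.8 FPKM, and Mtx2, a mitochondrial import gene beside Hoxd1, at 38.1 against 30.6 FPKM. Lnp (6.40 against 7.78 FPKM) on the other side of Hoxd, Ttll6 (2.28 against 2.30 FPKM) beside Hoxb13, and Smug1 (6.13 against 8.16 FPKM) and Calcoco1 (40.7 against 36.2 FPKM) on either side of Hoxc completed them.

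**Figure D3:**
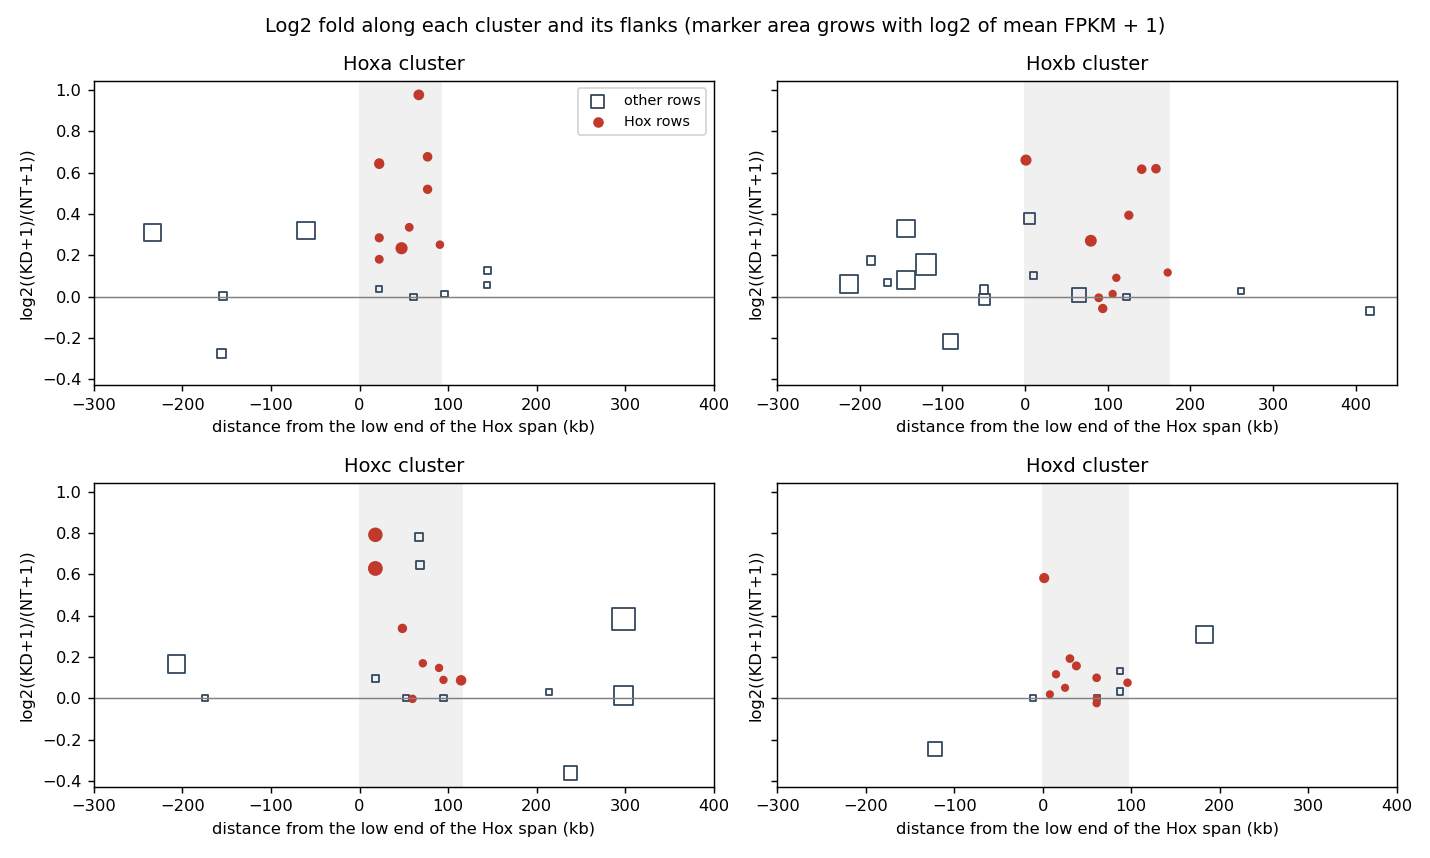
Log2 fold of KD over NT (vertical axis, pseudocount of 1) by distance in kb from the low-coordinate end of the Hox entries shown in each cluster (span in grey), for 38 Hox entries (filled) and other entries within 200 kb (open squares), each at the middle of its locus. Hox entries reach 0.98 inside the spans, and the outside entries lie between -0.36 and 0.38.

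Of the microRNA genes inside the clusters, which act on Hox messages among others, Mir10a, Mir10b, Mir196a-2, Mir196b and Mir615 had entries listed at 0 in both conditions, and Mir196a-1 was merged with Gm53. The entries count fragments over the hairpin gene, not the mature microRNA. The miR-10 and miR-196 sequences are shown because each family has members in more than 1 cluster with 1 shared seed (bases 2 to 8, in capitals; RefSeq, GRCm38.p6).
miR-10a-5p (Hoxb cluster): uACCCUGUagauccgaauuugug
miR-10b-5p (Hoxd cluster): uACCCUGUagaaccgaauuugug
miR-196a-5p (Hoxb and Hoxc clusters): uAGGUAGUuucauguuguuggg
miR-196b-5p (Hoxa cluster): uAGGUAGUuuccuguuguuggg

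Among pathways that act on the clusters, genes of the retinoic acid pathway, targets included, were mostly higher in the KD. Of its 19 genes 17 had the higher value in the KD and 2 the lower, with a median log2 fold of 0.30. Of all entries not at 0 in both conditions, 55.3% were higher in the KD. Of 13 tested, 1 was marked as higher and none as lower, where 1.15% of all tested entries were marked. A deposited p under 0.05 was found for 7, where 8.88% of all tested entries had one. Stra8, a retinoic acid target in germ cells that also lies on chromosome 6, was the gene that rose, from 32.3 to 88.9 FPKM (log2 fold 1.43, q = 0.00815 by the authors' deposited table). Cyp26a1, which degrades retinoic acid and is itself induced by it, had the largest log2 fold at 2.07. It was at 3.89 FPKM in the KD, against 0.164 FPKM in NT, with p = 0.0099 and q = 0.250 by the authors' deposited table. Crabp2, a carrier of retinoic acid to the nucleus, was at 5.44 against 1.30 FPKM and Stra6, the retinol uptake receptor, at 1.57 against 0.166 FPKM, both singled out after their values were seen and neither marked. Among receptors, Rarg was at 82.1 against 58.8 FPKM with q = 0.491 by the authors' deposited table.

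**Figure D4:**
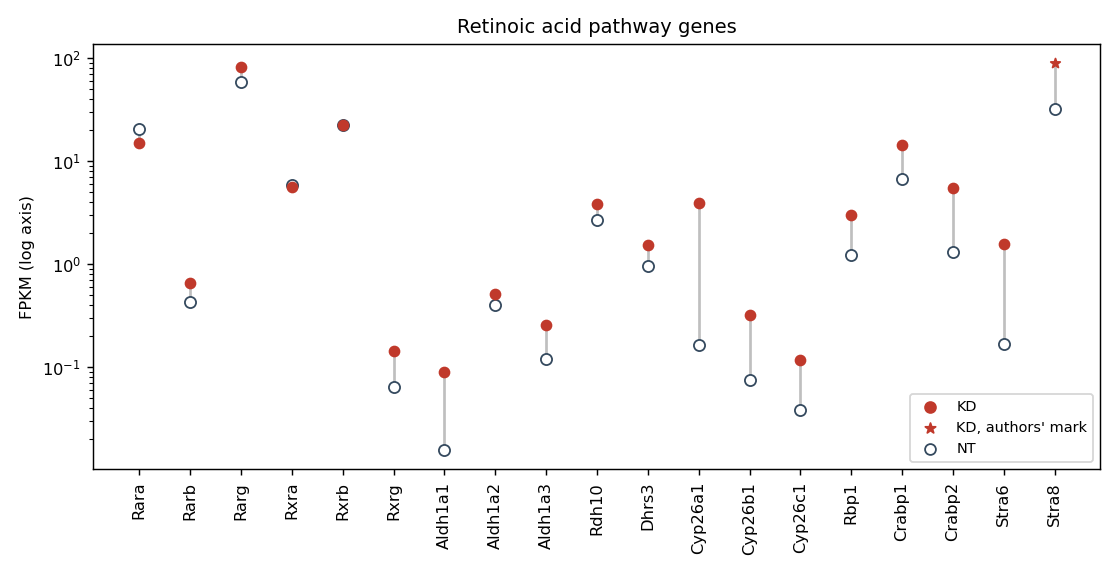
Deposited FPKM (log axis) of the 19 retinoic acid pathway genes in the KD (filled; the star is the gene marked by the authors) and NT (open). Stra8 is the starred gene at 88.9 FPKM against 32.3 FPKM, and Cyp26a1 shows the widest gap, 3.89 FPKM against 0.164 FPKM.

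Caudal factors, which activate central and posterior Hox genes, were low. Cdx1 was at 3.54 against 1.46 FPKM (log2 fold 0.88, q = 0.944 by the authors' deposited table), Cdx2 at 0.189 FPKM in the KD and listed at 0 in NT, and Cdx4 at 0.142 against 0.170 FPKM. Among 8 signals and mesoderm factors that feed posterior Hox expression none was marked, with a median log2 fold of 0.15. Gdf11, a trunk-to-tail signal, was at 1.56 against 0.723 FPKM, Bmp4 at 14.7 against 12.1 FPKM and Tbx6 at 0.359 against 0.505 FPKM. The 9 TALE cofactors were all expressed above 1 FPKM in the KD, none was marked, and 6 had the lower value there (median log2 fold -0.10). Meis1, a Hox cofactor in blood and limb, differed most, at 1.27 against 0.279 FPKM with q = 0.175 by the authors' deposited table, while Pbx2 (17.8 against 20.1 FPKM) and Pknox1 (8.02 against 8.28 FPKM) were the most abundant.

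Chromatin regulators of the clusters were mostly abundant and none was marked. The 21 Polycomb genes, in 22 entries, had a median log2 fold of 0.053, with 12 entries higher in the KD and 10 lower. Phc1, a subunit of Polycomb complex 1, was at 172 against 125 FPKM and Mtf2, a partner of the Polycomb methyltransferase, at 123 against 136 FPKM. Aebp2, another partner, had the largest log2 fold (0.66), at 104 against 65.4 FPKM; Phc1 and Aebp2 both lie on chromosome 6. The 11 genes of the opposing trithorax complexes and histone demethylases had a median of -0.068, with 9 lower in the KD and 2 higher. Dpy30 was at 192 against 211 FPKM, Psip1 at 150 against 141 FPKM and Kmt2a, the methyltransferase that maintains Hox expression, at 14.1 against 15.3 FPKM. The largest log2 difference of the list (-0.21) was that of Kdm6b, a demethylase that removes the Polycomb mark, in an entry merged with Tmem88. Of 4 further nuclear factors, whose action on the clusters was not examined here, 2 were higher in the KD and 2 lower. Zfp42 was the most abundant, at 572 against 511 FPKM, and Rest had the largest log2 difference (-0.37), at 72.4 against 93.7 FPKM; Ctcf was at 46.0 against 43.8 FPKM and Gmnn at 65.9 against 69.3 FPKM.

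Markers of the cell types in the cultures were set beside these values. The 7 ES cell markers were high in both conditions and none was marked, with a summed FPKM of 3389 in the KD and 3311 in NT, as the label of the cells states. The pluripotency factor Pou5f1 was at 1078 against 1036 FPKM and Tdgf1 at 686 against 706 FPKM, and the largest log2 difference was that of the second of the 2 Esrrb entries (-0.37). Of 10 markers of primitive endoderm, an extraembryonic lineage, 9 were marked as higher in the KD, and their sum was 534 against 107 FPKM. By the authors' mark Gata4, Gata6, Sox17, Sox7, Pdgfra, Dab2, Col4a1, Lama1 and Sparc rose, and Foxa2 (2.63 against 0.140 FPKM) was not marked. Sparc, a matrix protein, was at 249 against 64.2 FPKM, and Col4a1, a basement membrane collagen, had the largest log2 fold (3.21), at 109 against 10.9 FPKM. Of 10 markers of feeder fibroblasts, cells that express Hox genes according to their body position, 8 were higher in the KD, 1 was lower and none was marked, with a sum of 18.9 against 10.2 FPKM. Thy1 was at 7.06 against 5.08 FPKM and Pdgfrb at 2.57 against 2.73 FPKM. Col1a1 had the largest log2 fold of the list (1.27), at 3.63 against 0.920 FPKM, with q = 0.104 by the authors' deposited table. Col1a2, which lies on chromosome 6, was at 4.03 against 1.12 FPKM (log2 fold 1.25), with q = 0.0505 by the authors' deposited table. That q was the smallest of any tested entry that was not marked. Lum was listed at 0 in both, and Postn was at 0.0452 against 0.00836 FPKM. The part of either group of cells in the Hox values was not tested. Of 7 neural markers 1 was marked as higher, Nes, at 7.17 against 0.991 FPKM, and the sum was 57.5 against 41.2 FPKM, most of it from Tubb3 (47.3 against 36.2 FPKM). The 7 mesoderm markers had no mark and a sum of 2.44 against 2.01 FPKM, with Eomes at 1.05 against 1.02 FPKM, Tbx6 as given above and Kdr, with the largest log2 fold (0.32), at 0.400 against 0.120 FPKM.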

How the data were processed

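Total RNA of 4 TBV2 libraries (1 NT, 3 KD clones) was sequenced. The tools were TopHat, Cufflinks and Cuffdiff on mm9, per the submitters' processing notes. Not given in the sources used here are versions, options, annotation, strand setting and scaling. The deposited table gives 1 FPKM for treated, taken as KD, and 1 for control, taken as NT, per the file headers. The p-value and q-value are the authors' own Cuffdiff values; the largest q among entries they marked was 0.0478. Of 27542 entries 10 that failed or exceeded a depth limit were left out.

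Fold changes were computed as log2((KD FPKM + 1)/(NT FPKM + 1)) with pandas 2.3.3 and NumPy 2.4.6 in Python 3.11.15. No test was run, since each condition has 1 value. Replicates are clones pooled before deposit, so none could be left out. The worth of 1 fragment was the commonest low value of FPKM times length over genes with 1 GENCODE transcript of at least 1500 bp (126 genes in the KD, 123 in NT), and read numbers per library are not stated. The summary code was tested on simulated data. Members, gene lists and alternatives were chosen with earlier results of these data known. Named in full were Hox entries with at least 1 FPKM in either condition and, per cluster, the 2 highest in mean FPKM and the 2 with the largest absolute log2 fold; in other lists, marked genes, the 2 highest in mean FPKM and the 1 with the largest absolute log2 fold. Other Hox entries are given by FPKM, 1 Hox entry is counted in totals and otherwise not reported here, and further genes named were chosen after their values were seen. Alternatives changed the pseudocount, the low-value filter, merged entries and centring.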

Additional observations from a re-analysis of the deposited data

How the results depend on the processing

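No paired analysis was possible because the deposited table holds 1 pooled value per condition. Every median log2 fold stayed above 0 under each alternative, while its size depended on the handling of low values. For the pseudocounts and the tested entries that sign was fixed beforehand. A pseudocount cannot turn the sign of a fold, and all 15 tested entries were higher in the KD. Medians are listed as all clusters, Hoxa, Hoxb, Hoxc and Hoxd, and values within 1.5 times of the reported one are left out. With a pseudocount of 0.1 they were 0.88, 1.73, 0.75, 0.84 and 0.49, and with 0.01 they were 1.54, 2.55, 1.48, 1.23 and 1.09. With tested entries alone they were 0.63 for all clusters, 0.62 for Hoxb, 0.63 for Hoxc and 0.58 for Hoxd. With at least 0.1 FPKM in either condition they were 0.34 for all clusters, 0.39 for Hoxb, 0.25 for Hoxc and 0.16 for Hoxd, and with at least 1 FPKM 0.66, 0.81 for Hoxa, 0.47 for Hoxb and 0.71 for Hoxc, with no Hoxd entry left. Fewer low entries, whose fold the pseudocount shrinks, remain under these filters. An entry can also pass through its KD value alone, as Hoxa10 and Hoxb13 did at 1 FPKM, so these medians lean toward the KD. Centred on the own chromosome's median over entries with at least 1 FPKM, a higher level than that of most Hox entries, the median was 0.084 for all clusters, 0.26 for Hoxa and 0.029 for Hoxd. Without Hoxa, an alternative chosen after seeing the data, it was 0.12. Counting values under 0.05 FPKM in place of 0, 33.3% of entries in NT were at that level against 15.4% listed at 0. In the KD it was 12.8% against 2.56%. By cluster, the NT shares were 18.2% for Hoxa, 30% for Hoxb, 37.5% for Hoxc and 50% for Hoxd, against 9.09%, 10%, 12.5% and 30%. The KD shares were 10% for Hoxb and 40% for Hoxd, against 0% and 10%, and stayed at 0% for Hoxa and Hoxc. No entry had a q under 0.1, and 4 had an unadjusted p under 0.05. Few fragments in NT limit the ratios of all entries near 3 fragments there.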
